A study of Homo sapiens and Mus musculus with 16 samples.

Results

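MDA-MB-231 is a human triple-negative breast cancer line of mesenchymal appearance. The comparison described here sets 4 RNA libraries from its PD-L1 knockout against 4 libraries from its wild type, across all genes and with weight on functions other than the immune ones. A gene was a member when it reached at least 1 FPKM (mapped fragments scaled per kilobase of transcript and per 1e6 fragments in the library) in at least 4 of the 8 libraries. The line's table lists 58713 genes, of which 14450 did so, and 11714 of them were at 1 FPKM or more in all 8 libraries. A further 584 members entered only through the wild type libraries and 363 only through the knockout libraries. Those genes had to differ, so counts of all members include them.

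The wild type cells were labelled wild type for PD-L1, and the knockout was made in the same line by lentivirus-borne CRISPR. Both were grown in DMEM with fetal bovine serum, penicillin and streptomycin, and the labels name no drug, cytokine or time point. The sources used here do not give the guide sequence, any control virus in the wild type cells, or whether the knockout was one clone or a mixed pool. Nor do they say that replicate libraries stem from different cultures, so each p-value rests on a spread between libraries that may be purely technical. The design asks which transcripts of the tumour cell itself differ when PD-L1 is disrupted and the labels name no co-culture with T cells.

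PD-L1, the product of CD274, is a membrane protein that binds PD-1 on T cells and dampens them. It also has a short cytoplasmic tail, and tumour cells are known to change their own growth, survival signalling and metabolism when it is lost or overproduced. MDA-MB-231 is known for vimentin, CD44 and AXL, for a lack of oestrogen and progesterone receptors, and for a homozygous deletion at chromosome band 9p21 that removes the cell cycle inhibitor genes CDKN2A and CDKN2B. In the text below ± is the SD over the 4 libraries of a group, levels are in FPKM, and fold changes are differences of log2(FPKM + 1), knockout minus wild type. A gene rose or fell where limma's adjusted p, taken over all 14450 genes, was below 0.05. Where a gene is said to have risen or fallen without its own p, that p was at most 0.0308.

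The knockout libraries were shallower. The depth read from the steps of low values was 17.3 to 22.3 M fragments (M, 1e6) in the wild type and 9.36 to 14.3 M in the knockout, so that 1 fragment on 1 kb of transcript was worth 0.0449 to 0.0578 FPKM in the wild type and 0.0698 to 0.107 FPKM in the knockout. On 1 kb of transcript a level of a few hundredths of an FPKM is thus about 1 fragment, and on a longer transcript it can be several. On the log2 scale, libraries of a group correlated at 0.964 to 0.977 across genes and libraries of different groups at 0.860 to 0.870, and the first principal component, with 72.7% of the variance, separated the groups.

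The targeted transcript was not lost. CD274 (GENCODE 29, hg38, chromosome 9, 5450503 to 5470566) read 12.3, 11.2, 12.5 and 12.8 FPKM in the wild type and 9.93, 11.6, 8.19 and 12.5 FPKM in the knockout. Knockout replicates 2 and 4 lay within the wild type range and replicates 1 and 3 below it, so the groups overlapped. The log2 fold change was -0.20 with limma adjusted p = 0.166, and an exact two-sided permutation test over the 70 assignments of the 8 values gave p = 0.229, where 0.0286 is the smallest that this design allows. The call depends on the scale: upper-quartile scaling gave -0.40 (limma adjusted p = 0.0157) and quantile normalization -0.32 (limma adjusted p = 0.0425). A small insertion or deletion need not lower a transcript, so this level does not check the labels.

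Both groups carried the expression mark of the 9p21 deletion. CDKN2B, its antisense gene CDKN2B-AS1 and DMRTA1 were listed at 0 in all 8 libraries. MTAP, the methionine salvage enzyme gene of the same band, read 0, 0.0205, 0 and 0 FPKM in the wild type and 0, 0, 0 and 0 FPKM in the knockout. CDKN2A read 0.186, 0.0958, 0.394 and 0 FPKM in the wild type and 0.239, 0.307, 0.327 and 0.733 FPKM in the knockout, under 1 FPKM throughout. The flanking genes FOCAD (2.59 to 2.61 FPKM) and MLLT3 (8.82 to 7.42 FPKM) were present and did not pass the test. ESR1 and PGR, the oestrogen and progesterone receptor genes, were under 1 FPKM in every library.

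The defining genes of the mesenchymal type were present in both groups, though several moved. VIM, the intermediate filament vimentin, read 1095, 1120.4, 1112 and 1123 FPKM in the wild type and 2634, 2605, 2462 and 2482 FPKM in the knockout (log2 fold change 1.19, SE 0.0342, limma adjusted p = 1.38e-08). Every knockout library lay above every wild type library, and groups were apart in this way for 62.7% of all tested genes. AXL, a receptor kinase of mesenchymal cells, went from 165 ± 8.64 to 234 ± 12.03 FPKM, EGFR from 28.2 ± 1.82 to 44.5 ± 3.66 FPKM and the zinc finger repressor gene ZEB1 from 8.22 ± 0.712 to 19.6 ± 1.702 FPKM, and all rose. CD44, the hyaluronan receptor, read 1028, 1131, 1084 and 1129 FPKM in the wild type and 311, 325, 337 and 312 FPKM in the knockout (log2 fold change -1.76, SE 0.0446, limma adjusted p = 7.47e-09). All 4 knockout libraries lay below the wild type, and TGFBI, a secreted matrix protein gene, fell from 196 ± 9.97 to 17.8 ± 2.22 FPKM. Of the 20 listed mesenchymal-type genes 19 were tested, 8 rose and 9 fell (42.1% and 47.4%, against 42.6% and 25.7% of all tested genes).

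Most markers of other cells were below the filter. Of 31 leukocyte markers 8 were tested, of which 50% rose and 37.5% fell, against 42.6% and 25.7% of all tested genes. LCP1, CD96, ITGB2 and CORO1A rose and CSF1R, CD14 and CD68 fell, and the summed level of the list was 161 to 170 FPKM in the wild type and 250 to 285 FPKM in the knockout. CD3E, CD3G, MS4A1, CD2, CD48 and TYROBP were listed at 0 in all 8 libraries, and PTPRC, the pan-leukocyte surface gene, was at 0.715 FPKM or less in the wild type and listed at 0 in all 4 knockout libraries. Of 20 kidney and liver markers 3 were tested, and all 3 fell by at least 2-fold, the summed level of the list going from 176 to 188 FPKM in the wild type to 3.004 to 4.26 FPKM in the knockout. Of 18 fibroblast and endothelial markers 4 were tested and 2 fell (36.1 to 41.8 FPKM summed in the wild type, 34.4 to 35.96 FPKM in the knockout), and of 23 neural and melanocyte markers 6 were tested, 3 rose and 2 fell (187 to 208 and 185 to 209.7 FPKM). Of the tested neural and melanocyte markers 50% rose and 33.3% fell, and of the fibroblast and endothelial markers 0% and 50%. None of the 19 listed embryonic and germ cell genes was tested. What part such cells have in the other results was not tested.

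Most genes differed. Of 14450 genes 9860 (68.2%) passed the threshold, 6149 (42.6%) higher and 3711 (25.7%) lower in the knockout, with 1671 (11.6%) higher and 1438 (9.95%) lower by at least 2-fold. Among larger changes there were more falls. A fall of at least 2 on the log2 scale was seen for 460 genes and a rise of that size for 239, and at 5 or more the numbers were 45 and 8. The balance of rises and falls rested on the scale, also at 2-fold. The median log2 fold change was 0.18 as deposited, -0.01 once scaled to the upper quartile and 0.08 with quantile normalization, and the counts became 4736 higher (32.8%) and 4851 lower (33.6%) with upper-quartile scaling, and 5397 higher (37.3%) and 4344 lower (30.1%) with quantile normalization. By at least 2-fold 1137 were higher and 1844 lower with upper-quartile scaling, and 1392 and 1550 with quantile normalization. Counts over gene lists are to be read beside the shares of all tested genes. These were 42.6% higher and 25.7% lower as deposited, and 32.8% and 33.6% after upper-quartile scaling. Some genes named below as not passing also passed on another scale: ANXA1, CCND1, E2F1, EZH2, IRF9, NOTCH2 and PLAU as lower with both scalings, MLLT3 and NOTCH1 as lower with upper-quartile scaling alone, and MT-CO3 as higher with quantile normalization alone. All 4 values of one group lay above all 4 of the other for 62.7% of the tested genes (9057), so a lack of overlap is the common case here. Over 8047 genes with a mean of at least 10 FPKM the median coefficient of variation between libraries was 7.64% in the wild type and 8.33% in the knockout.

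**Figure D1:**
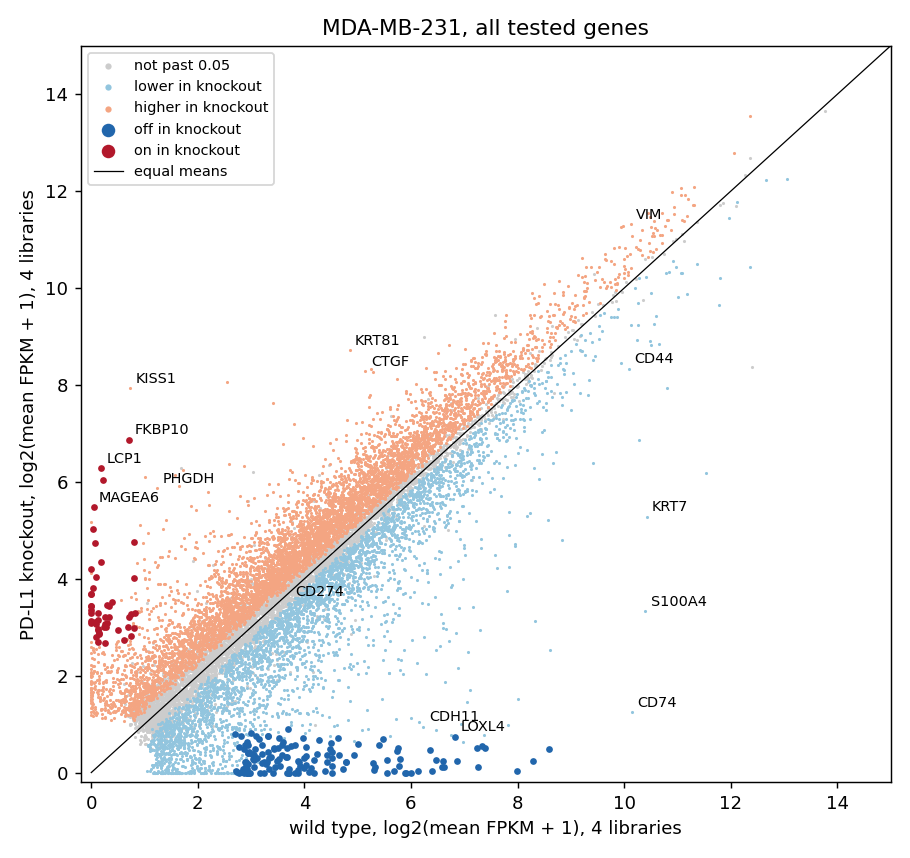
Mean level of each of 14450 tested genes in the wild type (x axis) and in the knockout (y axis), both as log2(FPKM + 1) over 4 libraries. The dark points along the lower edge are the 137 genes off in the knockout and those along the left edge the 48 genes on in the knockout, and CD274 lies close to the line of equal means.

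A set of genes was present in one group and close to nothing in the other. With on defined as at least 5 FPKM in all 4 libraries of a group and off as under 1 FPKM in all 4 of the other, 137 genes were off in the knockout and 48 were on in the knockout only. The definition used the levels, so these counts are a description without a test. Protein-coding genes made up 127 of the 137 and 36 of the 48. The lost genes were the more abundant: their median level when on was 12.1 FPKM and 24 of them were at 50 FPKM or more, against a median of 8.47 FPKM and 3 at 50 FPKM or more for the gained genes. Close to the limits, GCKR was included with its lowest wild type level at 5.01 FPKM and IGHV3-15 was not with 4.98 FPKM. With limits of 10 and 0.5 FPKM the numbers were 44 and 8, and with 2 and 1 FPKM they were 305 and 146.

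Of the lost genes 8 belonged to the MHC class II list and 4 to the interferon and NF-kappaB list. Others with known immune roles, such as CFB, C2, IFITM1 and TRBC2, are on neither list, so these counts understate the immune genes. The set also held secreted, epithelial and metabolic genes. LOXL4, a lysyl oxidase that cross-links collagen (chromosome 10, 98247690 to 98268250), read 109.7, 114, 111 and 113 FPKM in the wild type and 0.715, 0.458, 0.795 and 0.699 FPKM in the knockout. CFB, complement factor B, read 112, 119, 116 and 116 FPKM in the wild type and 0.0933, 0.06604, 0.574 and 0 FPKM in the knockout. TNFSF10, the death ligand TRAIL, read 90.3, 101, 92.05 and 96.4 FPKM in the wild type and 0, 0, 0.242 and 0.0742 FPKM in the knockout. In each of these the lowest wild type library was more than 80 FPKM above the highest knockout library. PRSS2, a trypsinogen gene, read 62.8, 64.4, 62.6 and 61.7 FPKM in the wild type and was listed at 0 in all 4 knockout libraries. SPINK4 (54.4, 58.5, 60.1 and 59.2 FPKM) and PDZK1IP1 (56.5, 63.4, 59.4 and 56.7 FPKM) were likewise listed at 0 in all 4 knockout libraries. In all, 20 of the 137 were listed at 0 in every knockout library.

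Several lost genes have known roles in epithelial cells. TRIM29, a gene of basal epithelia, read 75.4, 87.4, 89.96 and 96.6 FPKM in the wild type and 0, 0.801, 0 and 0 FPKM in the knockout. MUC1, the membrane mucin, read 90.5, 83.6, 75.2 and 72.9 FPKM in the wild type and 0.149, 0.2403, 0.572 and 0.582 FPKM in the knockout. EHF, an epithelial ETS transcription factor, read 52.7, 47.2, 53.03 and 48.6 FPKM in the wild type and 0, 0.0379, 0 and 0.0453 FPKM in the knockout. No knockout library reached 1 FPKM for these genes, and 3 of the 4 were listed at 0 for TRIM29. GJB2, a connexin of epithelial gap junctions, went from 15.2 to 0.436 FPKM. MAL2, CD24, PROM2, TSPAN8, ELF3 and PLEKHA7, apical or junctional genes or their regulators, were also in the set, with wild type means between 5.68 and 18.3 FPKM.

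Metabolic and stress genes were among the losses too. GLUL, which encodes glutamine synthetase, read 54.7, 48.2, 53.1 and 54.9 FPKM in the wild type and 0.549, 0.265, 0.603 and 0.286 FPKM in the knockout. LCN2, an iron-carrying lipocalin, read 55.1, 52.7, 54.6 and 51.3 FPKM in the wild type and 0, 0, 0.402 and 0 FPKM in the knockout. EGLN3, an oxygen-sensing prolyl hydroxylase, read 21.7, 21.8, 22.3 and 21.8 FPKM in the wild type and 0.208, 0.03504, 0.134 and 0 FPKM in the knockout. None of the 3 exceeded 1 FPKM in a knockout library. GSTM1 and GSTM2, neighbouring glutathione transferase genes, had wild type levels of 20.2, 25.3, 24.6 and 25.7 and 14.4, 10.9, 10.7 and 12.1 FPKM. GSTM2 was listed at 0 in all 4 knockout libraries and GSTM1 at 0.106, 0.544, 0.307 and 0.162 FPKM.

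Some losses were neighbours on a chromosome. Within 100 kb of each other, and with no other tested gene in the span, lay SYT12 and RHOD, FNDC4 and GCKR, APCDD1L and its divergent transcript APCDD1L-DT, HLA-DPA1 and HLA-DPB1, and the salivary cystatin genes CST4, CST1 and CST2. In other spans tested genes that were not lost lay between: GSTM2 and GSTM1 were 2 of 3 tested genes, C2 and CFB 2 of 4, the genes HLA-DRA, HLA-DRB5, HLA-DRB6, HLA-DRB1 and HLA-DQB1 5 of 6, PRSS2, TRBC2 and EPHB6 3 of 5, and RARRES2 and LINC00996 2 of 6. CST1 read 101, 103, 92.1 and 92.8 FPKM in the wild type and 0.305, 0, 0 and 0 FPKM in the knockout, CST4 40.5, 38.2, 37.7 and 40.2 FPKM in the wild type and 0, 0.161, 0 and 0.193 FPKM in the knockout, and CST2 13.01, 16.4, 13.1 and 12.2 FPKM in the wild type and 0, 0, 0 and 0 FPKM in the knockout. All 3 cystatin genes were near 0 in the knockout libraries. RHOD, a small GTPase gene, read 45.3, 44.4, 50.4 and 42.9 FPKM in the wild type and EPHB6, a kinase-dead ephrin receptor, 22.9, 20.9, 21.3 and 21.96 FPKM, and both were listed at 0 in all 4 knockout libraries. No 2 gained genes lay within 100 kb of each other. The cystatin, GSTM, HLA and trypsinogen genes have near-identical copies that can share reads, so the split between members is less certain than their sum.

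The gained genes were led by FKBP10, a chaperone of collagen folding in the endoplasmic reticulum (chromosome 17, 41812680 to 41823217). It read 0.964, 0.456, 0.7996 and 0.326 FPKM in the wild type and 113, 112, 114 and 125 FPKM in the knockout. LCP1, the actin bundler L-plastin of blood cells, read 0.0968, 0.0714, 0.197 and 0.1798 FPKM in the wild type and 67.6, 78.9, 82.1 and 79.3 FPKM in the knockout. CACNA2D4, an auxiliary subunit of calcium channels, read 0.189, 0.09898, 0.219 and 0.124 FPKM in the wild type and 68.2, 70.3, 57.1 and 63.2 FPKM in the knockout. Every wild type library was under 1 FPKM for all 3, and the knockout libraries lay close together. MAGEA6 and MAGEB2 are cancer-testis genes of the X chromosome, silent in most adult tissues. MAGEA6 read 0.0347, 0.0861, 0 and 0 FPKM in the wild type and 41.7, 47.3, 43.3 and 41.5 FPKM in the knockout. MAGEB2 read 0, 0.0314, 0 and 0.0337 FPKM in the wild type and 31.7, 33.6, 31.5 and 29.3 FPKM in the knockout.

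Further gained genes have diverse known roles. ENG, the TGF-beta co-receptor endoglin of endothelium, read 0.975, 0.627, 0.922 and 0.416 FPKM in the wild type and 24.3, 28.4, 24.7 and 27.2 FPKM in the knockout. CD96, a receptor of T and NK cells, read 0, 0.02402, 0 and 0.162 FPKM in the wild type and 22.7, 36.5, 22.7 and 20.2 FPKM in the knockout. AMPH, the synaptic endocytosis protein amphiphysin, read 0.0363, 0.01497, 0.254 and 0.212 FPKM in the wild type and 19.2, 18.1, 22.5 and 17.2 FPKM in the knockout. EPB41L3, a linker of membrane and cytoskeleton, went from 0.0626 to 15.4 FPKM, and CHRDL1, a secreted BMP antagonist, from 0.754 to 15.1 FPKM. At lower levels there were SHANK1 and RIMS2, scaffold genes of the synapse, the heart and neural factor genes NKX2-5 and ZNF521, TLR4, a receptor for bacterial lipopolysaccharide, the mucin gene MUC5B and ST6GAL1, a sialyltransferase. TLR4 went from 0.7698 to 8.88 FPKM and NKX2-5 from 0.254 to 8.25 FPKM, and each of the 7 was below 1 FPKM in every wild type library.

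**Figure D2:**
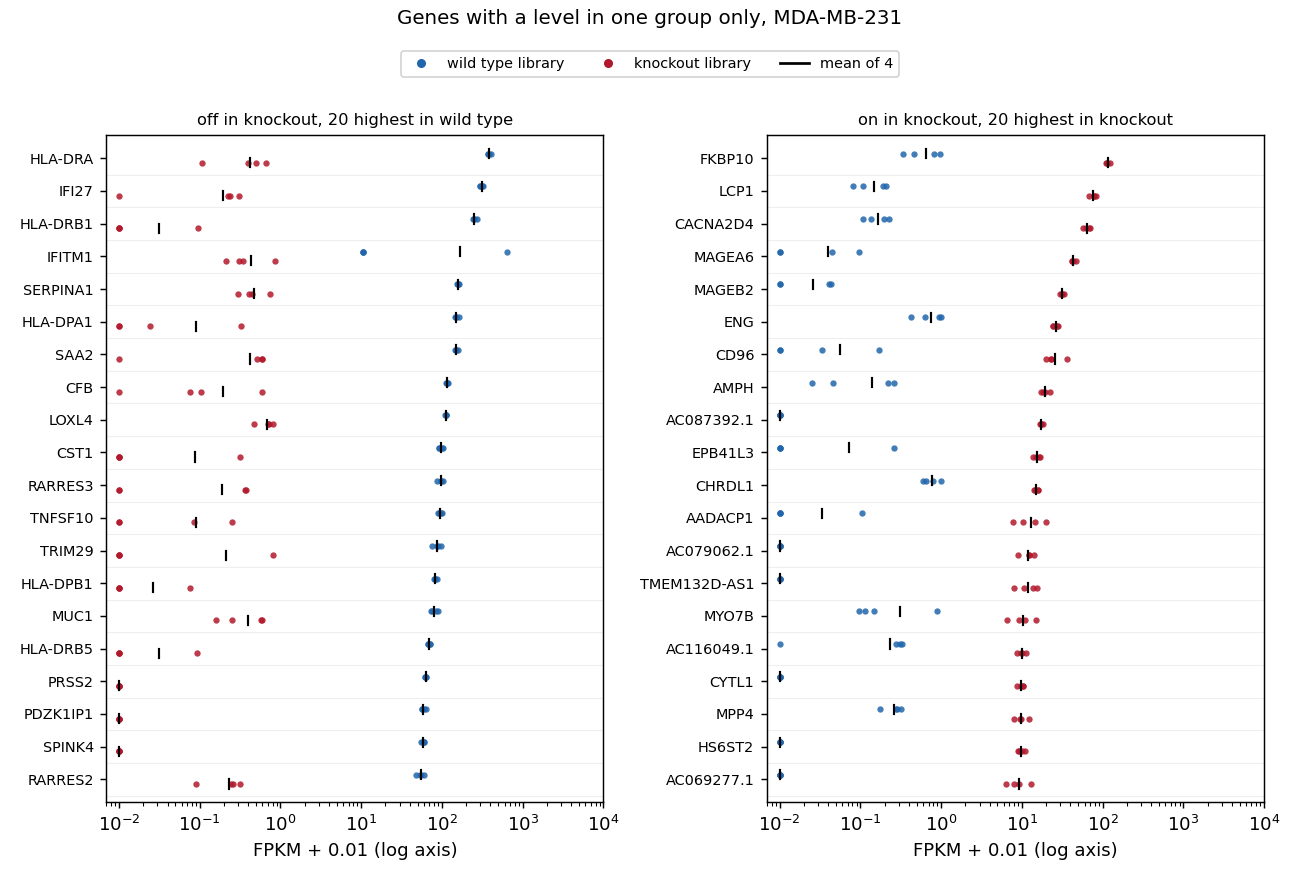
Level in each library (points, FPKM + 0.01 on a log axis) of the 20 genes off in the knockout with the highest wild type means and the 20 genes on in the knockout with the highest knockout means; short lines are means of 4 libraries. Points at the left edge are values listed at 0, and IFITM1 is the gene whose wild type libraries disagree, with 1 library far above the other 3.

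The promoters found for genes that switched on or off held fewer CpG dinucleotides, by median, than those found for all tested genes. DNA methylation falls on CpG sites, and CpG-poor promoters are typical of tissue-restricted genes. RefSeq promoters (GRCh38.p14, 250 bases before to 50 after the start) were found for 9743 of 14450 tested genes, 88 of 137 lost and 27 of 48 gained genes. A CpG observed over expected ratio above 0.6 was met by 83.9% of all of them, by 51.1% (45) of the lost and by 44.4% (12) of the gained. The share was 64.8% for genes lower by at least 2-fold and 82.0% for genes higher by at least 2-fold. A TATA box (TATAAA, either strand) stood in 5.20% of all promoters, 12.5% of the lost and 11.1% of the gained. These shares describe letters in a window, the differences between them were not tested, and genes without an entry were left out. The switched genes had to be under 1 FPKM in a whole group, whereas 11714 of the 14450 reached 1 FPKM in all 8 libraries. The sets thus differ in level by definition, so the CpG shares are a description and no support for a link with switching.

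The range is shown by 4 promoters, 2 of gained genes (LCP1 and MAGEA6) and 2 of lost genes (IFI27 and LOXL4). They are RefSeq sequences of GRCh38.p14, written 5′ to 3′ on the strand of the gene with every CpG in capitals. LCP1 lies at chr13:46182128-46182427 (minus strand), MAGEA6 at chrX:152769640-152769939 (minus strand), IFI27 at chr14:94110486-94110785 (plus strand) and LOXL4 at chr10:98268145-98268444 (minus strand).
LCP1: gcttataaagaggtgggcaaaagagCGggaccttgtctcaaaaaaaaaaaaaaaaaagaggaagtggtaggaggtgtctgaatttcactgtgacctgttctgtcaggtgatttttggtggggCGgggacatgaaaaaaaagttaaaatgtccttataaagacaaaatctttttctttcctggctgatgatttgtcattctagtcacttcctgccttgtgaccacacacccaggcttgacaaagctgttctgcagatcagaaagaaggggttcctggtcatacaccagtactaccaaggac
MAGEA6: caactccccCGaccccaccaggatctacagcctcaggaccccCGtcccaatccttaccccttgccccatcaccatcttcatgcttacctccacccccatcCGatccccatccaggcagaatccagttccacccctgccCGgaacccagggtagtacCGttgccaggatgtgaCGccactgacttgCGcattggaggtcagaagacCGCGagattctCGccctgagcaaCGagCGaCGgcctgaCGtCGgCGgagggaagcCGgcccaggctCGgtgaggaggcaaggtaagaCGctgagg
IFI27: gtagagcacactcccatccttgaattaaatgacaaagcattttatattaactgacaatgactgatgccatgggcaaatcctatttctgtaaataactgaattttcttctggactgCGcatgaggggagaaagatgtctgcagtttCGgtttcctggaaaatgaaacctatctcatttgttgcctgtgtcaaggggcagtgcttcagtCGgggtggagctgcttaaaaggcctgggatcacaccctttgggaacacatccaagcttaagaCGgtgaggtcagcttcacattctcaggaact
LOXL4: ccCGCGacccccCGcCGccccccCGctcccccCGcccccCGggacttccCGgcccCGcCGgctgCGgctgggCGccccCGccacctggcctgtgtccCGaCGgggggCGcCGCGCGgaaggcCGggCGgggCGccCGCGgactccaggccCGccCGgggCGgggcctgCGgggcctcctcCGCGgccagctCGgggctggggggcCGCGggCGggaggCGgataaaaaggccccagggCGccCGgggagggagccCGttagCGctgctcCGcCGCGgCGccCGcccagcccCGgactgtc
The ratio was 0.149 with 2 CpG for LCP1, 0.664 with 19 for MAGEA6, 0.268 with 4 for IFI27 and 0.827 with 45 for LOXL4. Genes that went from high to near 0 thus included both CpG-poor and CpG-rich starts, and so did those that went the other way.

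**Figure D3:**
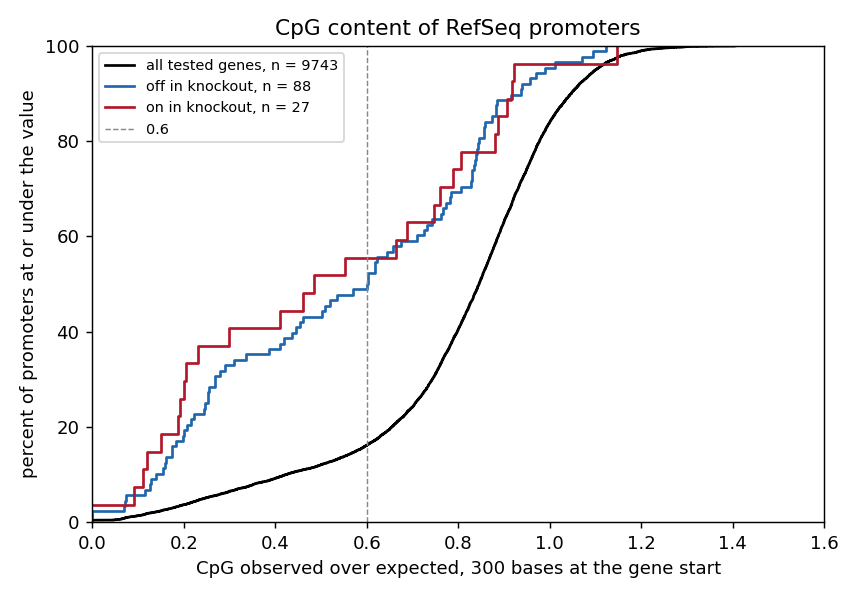
Cumulative share of promoters (y axis, percent) by CpG observed over expected ratio (x axis) for all tested genes with a RefSeq promoter (9743), genes off in the knockout (88) and genes on in the knockout (27). The curves of both switched sets lie to the left of that of all genes, with 51.1% and 44.4% above 0.6 against 83.9%.

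Keratin and junction genes changed in both directions. Keratins are the filaments of epithelia and vimentin that of mesenchyme. KRT7, a simple-epithelium keratin, read 1355, 1404, 1397 and 1326 FPKM in the wild type and 38.5, 36.6, 36.7 and 39.6 FPKM in the knockout (log2 fold change -5.14, SE 0.0403, limma adjusted p = 1.83e-11). KRT19 read 327, 324, 318 and 311 FPKM in the wild type and 7.51, 7.86, 7.72 and 7.88 FPKM in the knockout (log2 fold change -5.20, SE 0.0411, limma adjusted p = 1.83e-11). The wild type means were 36.2-fold and 41.3-fold the knockout means, with no overlap between the groups (62.7% of all tested genes had none). KRT8 (399 to 215 FPKM) and KRT18 (377 to 307 FPKM), the partners that form the basic network, fell less. KRT81, a hair-type keratin, went the other way with 29.1, 27.1, 28.2 and 26.9 FPKM in the wild type and 419.6, 431, 407 and 420.5 FPKM in the knockout (log2 fold change 3.87, SE 0.0413, limma adjusted p = 8.96e-11). Its near-identical copies KRT83 and KRT86 can share its reads.

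Among 24 listed luminal breast genes 17 were tested, 15 fell and 2 rose (88.2% and 11.8%, against 25.7% and 42.6% of all tested genes). CDH1, E-cadherin, was already low and went from 1.53, 2.45, 6.03 and 6.597 to 0.136, 1.08, 0 and 0.02896 FPKM. CLDN4, a tight junction claudin, went from 53.7 ± 1.18 to 8.59 ± 0.675 FPKM, SPDEF, a secretory lineage factor, from 13.5 ± 0.6201 to 3.48 ± 0.443 FPKM and EPCAM, an epithelial adhesion protein, from 27.6 ± 1.44 to 11.98 ± 1.06 FPKM, all falls. FOXA1, the pioneer factor of luminal cells, rose from 0, 0.0275, 0 and 0 to 2.603, 2.76, 2.25 and 3.08 FPKM, and its relative FOXA2 rose from 7.802 ± 0.713 to 27.5 ± 0.987 FPKM. ERBB3 rose from 2.66 ± 0.427 to 4.702 ± 1.205 FPKM. GATA3 fell from 7.77 ± 0.624 to 3.76 ± 0.689 FPKM.

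In the cell junction list 10 of 30 tested members rose and 17 fell (8 and 21 after upper-quartile scaling). The deposited shares were 33.3% and 56.7%, against 42.6% and 25.7% of all tested genes. JUP, plakoglobin of desmosomes and adherens junctions, read 36.4, 33.04, 36.2 and 35.6 FPKM in the wild type and 1.24, 1.55, 1.29 and 1.65 FPKM in the knockout (log2 fold change -3.90, SE 0.0823, limma adjusted p = 2.65e-09). CDH11, a cadherin of mesenchymal and bone cells, read 69.8, 70.5, 72.7 and 83.8 FPKM in the wild type and 0.759, 1.31, 0.844 and 0.817 FPKM in the knockout (log2 fold change -5.29, SE 0.107, limma adjusted p = 2.20e-09). DSP, desmoplakin, fell from 17.98 ± 0.968 to 3.35 ± 0.507 FPKM and F11R, a tight junction adhesion molecule, from 10.99 ± 1.37 to 1.35 ± 0.455 FPKM. Other members took the opposite course. CDH4, retinal cadherin, read 3.999, 3.66, 3.94 and 3.89 FPKM in the wild type and 29.4, 30.6, 31.6 and 31.4 FPKM in the knockout (log2 fold change 2.70, SE 0.0621, limma adjusted p = 4.43e-09). GJA1, connexin 43, read 0.985, 1.01, 1.17 and 1.11 FPKM in the wild type and 13.5, 12.6, 14.3 and 11.5 FPKM in the knockout (log2 fold change 2.75, SE 0.0914, limma adjusted p = 3.21e-08). The groups did not overlap for any of these 6 genes, as was so for 62.7% of all tested genes. CTNNB1, beta-catenin, rose from 141 ± 6.98 to 194 ± 9.72 FPKM. The junction genes thus divided by member.

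The actin genes were mixed. In that list 14 of 26 tested members rose and 11 fell as deposited (53.8% and 42.3%, against 42.6% and 25.7% of all tested genes). After upper-quartile scaling 10 rose and 11 fell, so the direction of the list depends on the scale. FSCN1, fascin, which bundles actin in filopodia, read 10.99, 10.6, 11.4 and 11.5 FPKM in the wild type and 107, 109.8, 116 and 105 FPKM in the knockout (log2 fold change 3.19, SE 0.0519, limma adjusted p = 6.67e-10). TAGLN, a smooth muscle actin-binding gene, rose from 11.1 ± 2.298 to 42.99 ± 2.69 FPKM and ACTN1, alpha-actinin, from 168 ± 10.9 to 389.99 ± 9.07 FPKM. FLNA, filamin A, fell from 1229.8 ± 107 to 824 ± 118 FPKM and MYL9, a myosin light chain, from 149.5 ± 5.86 to 87.1 ± 7.31 FPKM. CTGF, a matricellular gene responsive to cell tension, read 33.9, 35.1, 32.9 and 35.7 FPKM in the wild type and 319.9, 316, 289.6 and 324 FPKM in the knockout (log2 fold change 3.14, SE 0.0495, limma adjusted p = 5.58e-10). It had the largest rise of the integrin and laminin list, in which it was counted as a matricellular gene and which does not hold FERMT3 or ITGB2. FERMT3, the blood cell kindlin that activates integrins, rose from 2.31 ± 0.297 to 74.5 ± 7.43 FPKM, and ITGB2, a leukocyte integrin chain, from 1.46 ± 0.38999 to 20.8 ± 1.83 FPKM. FHL1, a LIM protein of muscle, rose from 2.14 ± 0.401 to 59.5 ± 7.55 FPKM.

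Adhesion receptors and basement membrane genes were mostly lower. In the integrin and laminin list 4 of 23 tested members rose and 18 fell (4 and 19 after upper-quartile scaling), with a median of -0.78 against 0.18 over all genes. ITGB4, a hemidesmosomal integrin chain, read 129.6, 129, 113 and 126 FPKM in the wild type and 12.6, 14.4, 13.6 and 19.1 FPKM in the knockout (log2 fold change -2.99, SE 0.117, limma adjusted p = 8.11e-08). ITGA5, the fibronectin receptor chain, read 127, 112, 131 and 134 FPKM in the wild type and 22.98, 21.99, 25.9 and 24.1 FPKM in the knockout (log2 fold change -2.36, SE 0.0732, limma adjusted p = 2.15e-08). Both genes fell, and no knockout library reached the wild type range. THBS1, thrombospondin, fell from 403 ± 24.7 to 82.7 ± 3.49 FPKM, ITGA3 from 482 ± 15.9996 to 229.9 ± 29.6 FPKM and FN1, fibronectin, from 199 ± 20.6 to 116 ± 15.999 FPKM. CYR61, a relative of CTGF, rose from 394 ± 8.94 to 537 ± 24.6 FPKM.

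Collagens and their enzymes were remodelled in both directions. Of collagen chains 5 of 19 tested members rose and 13 fell (4 and 14 after upper-quartile scaling). That is 26.3% and 68.4% as deposited, against 42.6% and 25.7% of all tested genes. COL5A1, a fibril-nucleating chain, read 144, 138, 145 and 139 FPKM in the wild type and 10.8, 9.38, 8.42 and 10.1 FPKM in the knockout (log2 fold change -3.74, SE 0.0721, limma adjusted p = 1.94e-09). COL4A5, a basement membrane chain, read 26.1, 22.9, 27.6 and 25.3 FPKM in the wild type and 0, 0.1504, 0.0284 and 0 FPKM in the knockout. COL13A1, a membrane collagen, read 34.996, 38.7, 35.9 and 34.02 FPKM in the wild type and 193, 201, 174 and 179.9 FPKM in the knockout (log2 fold change 2.35, SE 0.0606, limma adjusted p = 7.87e-09). The first 2 fell and COL13A1 rose, as did COL4A1 (8.54 to 19.5 FPKM) and COL4A2 (46.8 to 77.99 FPKM), the common chains of basement membrane. Of the collagen-processing genes 8 of 24 tested members rose and 12 fell (6 and 14 after upper-quartile scaling), 33.3% and 50% as deposited. Beside LOXL4, LOX (44.3 ± 1.0999 to 6.03 ± 0.505 FPKM), BMP1, which trims procollagen (30.96 ± 1.93 to 3.07 ± 0.397 FPKM), and the prolyl 4-hydroxylase subunit genes P4HA2 (74.7 ± 1.01 to 5.93 ± 0.635 FPKM) and P4HB (1503 ± 52.7 to 611 ± 6.704 FPKM) fell. The prolyl 3-hydroxylase family genes P3H2 (26.4 ± 4.56 to 114 ± 5.89 FPKM), P3H3 (0.803 ± 0.425 to 3.81 ± 0.5497 FPKM) and P3H4 (5.397 ± 1.16 to 24.3 ± 3.22 FPKM) rose along with FKBP10.

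Proteases and their inhibitors fell in most cases. In that list 6 of 33 tested members rose and 21 fell (6 and 23 after upper-quartile scaling). The deposited shares were 18.2% and 63.6%, against 42.6% and 25.7% of all tested genes. CTSD, the lysosomal protease cathepsin D, read 1824, 1731, 1813 and 1823 FPKM in the wild type and 257, 237, 244 and 239 FPKM in the knockout (log2 fold change -2.87, SE 0.0383, limma adjusted p = 2.40e-10). PLAT, tissue plasminogen activator, read 239, 233, 252 and 258 FPKM in the wild type and 23.8, 26.9, 26.1 and 24.6 FPKM in the knockout (log2 fold change -3.23, SE 0.0542, limma adjusted p = 8.25e-10). TIMP1, an inhibitor of matrix metalloproteases, read 959.99, 1049, 953 and 959.7 FPKM in the wild type and 353, 389.98, 340.2 and 312 FPKM in the knockout (log2 fold change -1.49, SE 0.0681, limma adjusted p = 1.94e-07). The groups were apart in all 3, as in 62.7% of all tested genes. CTSB fell from 349 ± 18.8 to 94.3 ± 7.65 FPKM, CTSL from 106 ± 1.81 to 17.9 ± 0.878 FPKM and MMP14, a membrane metalloprotease, from 147 ± 8.69 to 54.98 ± 3.14 FPKM. PLAU, urokinase (188 to 162 FPKM), did not pass, and its receptor gene PLAUR rose from 122 ± 5.63 to 160.2 ± 7.29 FPKM. ADAMTS1 rose from 2.57 ± 0.947 to 12.1 ± 2.94 FPKM and ADAMTS6 from 2.04 ± 0.618 to 12.6 ± 1.305 FPKM.

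Of genes named as metastasis suppressors or promoters 11 of 26 tested members rose and 11 fell (11 and 13 after upper-quartile scaling). As deposited each is 42.3%, against 42.6% higher and 25.7% lower among all tested genes. KISS1, which encodes kisspeptin, read 0.319, 0.811, 0.339 and 1.15 FPKM in the wild type and 253, 247, 225 and 252 FPKM in the knockout (log2 fold change 7.24, SE 0.156, limma adjusted p = 2.90e-09). S100A4, a calcium-binding protein of motile cells, read 1265, 1448, 1339 and 1335 FPKM in the wild type and 8.38, 11.9, 9.45 and 6.58 FPKM in the knockout (log2 fold change -7.09, SE 0.142, limma adjusted p = 2.17e-09). KISS1 is known as a suppressor and S100A4 as a promoter of metastasis, and their groups were far apart. CD82, a tetraspanin named a suppressor, fell from 289.5 ± 8.596 to 38.3 ± 3.26 FPKM, NDRG1 fell from 158 ± 19.3 to 27.5 ± 6.55 FPKM, and NME1 rose from 198 ± 5.202 to 366 ± 16.3 FPKM. In the S100 and annexin list 4 of 21 tested members rose and 14 fell (3 and 16 after upper-quartile scaling), 19.0% and 66.7% as deposited. S100A6 fell from 5249 ± 316 to 1391 ± 40.4 FPKM, S100A10 from 1556 ± 78.3 to 683 ± 48.8 FPKM and S100A2 from 299.9 ± 13.2 to 39.7 ± 2.68 FPKM, and S100P rose from 0.711 ± 0.821 to 7.49 ± 2.21 FPKM. ANXA1 (362 to 350.005 FPKM) did not pass the test.

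Transcripts of growth factors and their receptors went both ways. Epidermal growth factor receptor ligands are shed from the membrane and act on the same or nearby cells. AREG, amphiregulin, read 98.2, 115, 101 and 105 FPKM in the wild type and 5.17, 5.18, 5.82 and 5.98 FPKM in the knockout (log2 fold change -4.01, SE 0.0717, limma adjusted p = 1.20e-09). TGFA, transforming growth factor alpha, read 37.6, 35.3, 38.1 and 41.3 FPKM in the wild type and 4.55, 5.55, 6.05 and 4.85 FPKM in the knockout (log2 fold change -2.65, SE 0.0918, limma adjusted p = 4.06e-08). Both fell, while HBEGF, another ligand of the receptor, rose from 35.8 ± 0.975 to 49.7 ± 1.82 FPKM. VEGFA, the main angiogenic factor, read 219, 214, 242 and 243 FPKM in the wild type and 30.5, 24.4, 30.6 and 29.6 FPKM in the knockout (log2 fold change -2.96, SE 0.0822, limma adjusted p = 1.15e-08). Its relative PGF, placental growth factor, read 1.15, 0.914, 1.08 and 0.795 FPKM in the wild type and 18.9, 20.8, 20.5 and 20.9 FPKM in the knockout (log2 fold change 3.43, SE 0.0875, limma adjusted p = 7.61e-09). The fall of VEGFA and the rise of PGF were both without overlap, which held for 62.7% of all tested genes.

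Further ligands rose: FGF5 from 2.57 ± 0.9897 to 29.3 ± 3.49 FPKM, FGF1 from 1.11 ± 0.382 to 8.0001 ± 1.98 FPKM, PDGFC from 39.4 ± 3.68 to 80.7 ± 3.72 FPKM and MDK, midkine, from 37.95 ± 1.02 to 103 ± 9.79 FPKM. In the ligand list 10 of 29 tested members rose and 15 fell (10 and 16 after upper-quartile scaling), 34.5% and 51.7% as deposited. Of receptor tyrosine kinases 9 of 24 tested members rose and 12 fell (37.5% and 50%, against 42.6% and 25.7% of all tested genes). MST1R, the RON receptor, read 31.1, 28.1, 24.6 and 28.3 FPKM in the wild type and 0.347, 0.807, 3.19 and 2.796 FPKM in the knockout (log2 fold change -3.54, SE 0.347, limma adjusted p = 2.19e-05). IGF1R, the insulin-like growth factor receptor, read 4.06, 3.47, 3.304 and 2.73 FPKM in the wild type and 13.7, 12.5, 12.7 and 19.1 FPKM in the knockout (log2 fold change 1.81, SE 0.1498, limma adjusted p = 7.27e-06). DDR1, a collagen receptor, fell from 52.9 ± 8.96 to 14.2 ± 4.59 FPKM and EPHB2 from 42.6 ± 2.57 to 12.8 ± 0.796 FPKM. MERTK rose from 2.86 ± 0.657 to 9.26 ± 0.673 FPKM.

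In the TGF-beta and BMP list 12 of 35 tested members rose and 15 fell (10 and 17 after upper-quartile scaling). The deposited shares were 34.3% and 42.9%, against 42.6% and 25.7% of all tested genes. BMP4, a bone morphogenetic protein, read 230.3, 222, 233 and 223 FPKM in the wild type and 19.5, 15.9, 16.8 and 19.7 FPKM in the knockout (log2 fold change -3.59, SE 0.0724, limma adjusted p = 2.20e-09). NOG, the secreted BMP antagonist noggin, read 32.4, 24.1, 28.6 and 25.6 FPKM in the wild type and 3.61, 3.07, 3.51 and 3.92 FPKM in the knockout (log2 fold change -2.66, SE 0.107, limma adjusted p = 9.46e-08). FST, follistatin, which binds activin, read 9.67, 10.4, 10.2 and 10.8 FPKM in the wild type and 61.8, 66.9, 52.96 and 61.8 FPKM in the knockout (log2 fold change 2.45, SE 0.0778, limma adjusted p = 2.47e-08). A BMP ligand and one of its antagonists thus fell together while an activin antagonist rose. TGFB1 (52.7 to 54.5 FPKM) did not pass, and the receptor gene TGFBR2 rose from 34.5 ± 0.831 to 58.5 ± 2.703 FPKM. SMAD4 rose from 24.5 ± 3.403 to 47.3 ± 0.635 FPKM.

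Of Wnt pathway genes 12 of 26 tested members rose and 8 fell (11 and 9 after upper-quartile scaling). The deposited shares, 46.2% and 30.8%, lay near the 42.6% and 25.7% of all tested genes. LEF1, a nuclear partner of beta-catenin, read 1.07, 2.48, 1.67 and 1.17 FPKM in the wild type and 10.8, 9.19, 12.7 and 8.55 FPKM in the knockout (log2 fold change 2.14, SE 0.186, limma adjusted p = 1.02e-05). WNT7B fell from 24.2 ± 1.19 to 6.35 ± 0.826 FPKM and FZD7 from 23.8 ± 0.731 to 7.697 ± 0.384 FPKM. FZD2 rose from 15.5 ± 1.17 to 45.7 ± 1.11 FPKM, TCF7L2 from 20.6 ± 4.298 to 53.7 ± 22.2 FPKM, WNT5A from 0.0907 ± 0.0522 to 2.28 ± 0.451 FPKM and the secreted inhibitor DKK1 from 229.8 ± 17.2 to 349 ± 20.7 FPKM. Of Notch genes 5 of 18 tested members rose and 8 fell (5 and 10 after upper-quartile scaling). As deposited that is 27.8% and 44.4%, against 42.6% and 25.7% of all tested genes. JAG2 fell from 6.75 ± 1.36 to 0.345 ± 0.0755 FPKM, HES1 from 11.95 ± 0.581 to 5.35 ± 0.187 FPKM and HES4 from 16.9 ± 1.57 to 2.98 ± 0.611 FPKM, and JAG1 rose from 21.7 ± 1.87 to 31.1 ± 2.09 FPKM. NOTCH1 (4.301 to 3.92 FPKM) and NOTCH2 (15.9 to 13.7 FPKM) did not pass.

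Transcription factors of cell identity went both ways. In the list of homeobox, SOX, FOX, GATA and PAX genes 22 of 52 tested members rose and 21 fell (18 and 23 after upper-quartile scaling). That is 42.3% and 40.4%, against 42.6% and 25.7% of all tested genes, so only the share that fell lay above that of all genes. GATA6, a factor of endoderm, read 13.7, 12.97, 13.8 and 13.6 FPKM in the wild type and 1.21, 1.33, 1.48 and 1.73 FPKM in the knockout (log2 fold change -2.58, SE 0.0895, limma adjusted p = 4.06e-08). PAX8, a factor of kidney and thyroid, read 14.6, 15.8, 14.9 and 14.4 FPKM in the wild type and 1.995, 3.41, 1.66 and 2.78 FPKM in the knockout (log2 fold change -2.23, SE 0.154, limma adjusted p = 2.29e-06). WT1, a factor of the urogenital ridge and mesothelium, read 4.88, 6.34, 4.84 and 5.47 FPKM in the wild type and was listed at 0 in all 4 knockout libraries. MITF, the master gene of melanocytes that also has broadly used forms, read 4.06, 4.06, 2.85 and 3.704 FPKM in the wild type and 27.3, 31.1, 28.2 and 31.7 FPKM in the knockout (log2 fold change 2.72, SE 0.106, limma adjusted p = 7.84e-08). The pigment genes TYR and MLANA were below the filter. FOXR2, of a germline-restricted forkhead family, was listed at 0 in all 4 wild type libraries and read 8.83, 9.18, 9.15 and 8.104 FPKM in the knockout. FOXM1, a proliferation factor, rose from 78.2 ± 5.73 to 138 ± 1.599 FPKM.

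Snail and ZEB factors, which repress epithelial genes, did not move as one. SNAI2 fell from 20.7 ± 1.07 to 9.395 ± 0.759 FPKM, while SNAI1 rose from 1.34 ± 0.139 to 3.59 ± 0.184 FPKM and ZEB2 from 2.03 ± 0.466 to 3.36 ± 0.158 FPKM. Of 414 ZNF genes 110 rose and 103 fell, and after upper-quartile scaling 78 rose and 143 fell, so the balance of this family depends on the scale. As deposited the shares were 26.6% and 24.9%, against 42.6% and 25.7% of all tested genes. ZNF287 read 7.02, 5.83, 6.86 and 7.55 FPKM in the wild type and was listed at 0 in all 4 knockout libraries. ZNF804A rose from 0.0967 ± 0.0146 to 6.83 ± 0.461 FPKM. Of 40 listed HOX genes 6 were tested, 3 rose and 1 fell (3 and 2 after upper-quartile scaling), and 34 were below the filter. As deposited that is 50% and 16.7%, against 42.6% and 25.7% of all tested genes. HOXC6 was under 1 FPKM in the wild type and passed the filter only through the knockout, so its direction was fixed. Among the rises were HOXD4 (1.54 ± 0.432 to 5.51 ± 0.878 FPKM) and HOXC6 (0.402 ± 0.121 to 3.23 ± 1.29 FPKM).

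Most serine and one-carbon enzyme genes rose. They turn a glycolytic intermediate into serine, glycine and the folate-bound units used for nucleotides. In that list 14 of 19 tested members rose and 0 fell (13 and 1 after upper-quartile scaling), with a median of 0.67 against 0.18 over all genes. PHGDH, the first enzyme of serine synthesis, read 2.29, 0.518, 0.773 and 1.84 FPKM in the wild type and 52.2, 58.7, 67.8 and 52.1 FPKM in the knockout (log2 fold change 4.70, SE 0.242, limma adjusted p = 3.87e-07). PSAT1, the second, read 28.98, 29.7, 31.6 and 32.3 FPKM in the wild type and 90.98, 97.6, 98.3 and 96.4 FPKM in the knockout (log2 fold change 1.61, SE 0.0516, limma adjusted p = 2.55e-08). SHMT2, which makes glycine in mitochondria, read 75.6, 72.3, 80.7 and 78.2 FPKM in the wild type and 239.96, 249, 244 and 226 FPKM in the knockout (log2 fold change 1.63, SE 0.0487, limma adjusted p = 1.79e-08). Every knockout library exceeded every wild type library for these, and the groups did not overlap for 62.7% of all tested genes. MTHFD2 rose from 24.7 ± 1.82 to 76.9 ± 6.92 FPKM, the amino acid carrier gene SLC1A5 from 71.6 ± 6.12 to 207 ± 14.7 FPKM and GCSH from 0.619 ± 0.423 to 5.21 ± 2.26 FPKM.

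Most cholesterol synthesis genes rose, while the shares of fatty acid genes that rose and fell lay near those of all genes. SREBF2, the master factor of cholesterol synthesis genes, read 12.2, 10.7, 11.3 and 12.4 FPKM in the wild type and 42.6, 42.5, 41.99 and 41.7 FPKM in the knockout (log2 fold change 1.77, SE 0.0594, limma adjusted p = 3.34e-08). Of cholesterol genes 19 of 29 tested members rose and 5 fell (19 and 6 after upper-quartile scaling). FDFT1, which makes squalene, rose from 42.6 ± 4.01 to 128 ± 3.12 FPKM and ACAT2 from 38.3 ± 1.73 to 124 ± 9.53 FPKM. EBP, another enzyme of the same route, fell from 123 ± 3.57 to 44.4 ± 3.32 FPKM, as did the exporter gene ABCA1 from 5.498 ± 0.257 to 0.738 ± 0.199 FPKM. SCD, the stearoyl-CoA desaturase, read 12.6, 13.01, 13.9 and 12.6 FPKM in the wild type and 136, 149.7, 155 and 139.9 FPKM in the knockout (log2 fold change 3.38, SE 0.0593, limma adjusted p = 1.09e-09). FADS2, a fatty acid desaturase, read 36.1, 33.4, 38.4 and 36.7 FPKM in the wild type and 192, 219, 227 and 217 FPKM in the knockout (log2 fold change 2.53, SE 0.0642, limma adjusted p = 7.61e-09). FASN, fatty acid synthase, read 47.3, 41.6, 41.5 and 37.5 FPKM in the wild type and 165, 145, 170.2 and 142 FPKM in the knockout (log2 fold change 1.86, SE 0.0854, limma adjusted p = 1.97e-07). All 3 were at least 3-fold higher in the knockout by group mean (11.1, 5.91 and 3.703). Of fatty acid genes 10 of 20 tested members rose and 5 fell, which is 50% and 25% against 42.6% and 25.7% of all genes. The elongase genes ELOVL6 (42.8 ± 4.68 to 30.3 ± 7.796 FPKM) and ELOVL1 (122 ± 5.73 to 86.98 ± 8.72 FPKM) fell.

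Several genes known to be induced by low oxygen fell, while genes of glycolysis were divided. In the list that joins both 12 of 35 tested members rose and 21 fell (10 and 22 after upper-quartile scaling). The deposited shares were 34.3% and 60%, against 42.6% and 25.7% of all tested genes. CA9, a carbonic anhydrase induced by hypoxia, read 32.02, 31.6, 45.4 and 34.2 FPKM in the wild type and 0.538, 2.04, 0 and 0.852 FPKM in the knockout (log2 fold change -4.41, SE 0.303, limma adjusted p = 2.25e-06). SLC16A3, the lactate exporter, read 416, 387, 429.6 and 441 FPKM in the wild type and 106, 87.3, 105 and 91.6 FPKM in the knockout (log2 fold change -2.09, SE 0.0744, limma adjusted p = 4.62e-08). LDHA, lactate dehydrogenase A, read 2232, 2401, 2252 and 2344 FPKM in the wild type and 924, 955, 922 and 968 FPKM in the knockout (log2 fold change -1.29, SE 0.0367, limma adjusted p = 1.29e-08). SLC2A1, the glucose carrier, fell from 362 ± 8.42 to 133 ± 3.48 FPKM, PGK1 from 1233 ± 112 to 602 ± 31.8 FPKM and BNIP3 from 140.2 ± 3.69 to 52.3 ± 2.05 FPKM. LDHB, the other lactate dehydrogenase subunit, read 563, 669.7, 619 and 639 FPKM in the wild type and 1374, 1435, 1407 and 1294 FPKM in the knockout (log2 fold change 1.15, SE 0.0584, limma adjusted p = 3.65e-07). GAPDH rose from 4289.7 ± 87.2 to 7075 ± 122 FPKM, TPI1 from 847 ± 17.1 to 1115 ± 70.4 FPKM and PFKP from 209.9 ± 14.1 to 316 ± 21.2 FPKM. ADM, adrenomedullin, which is also known as hypoxia-induced, rose from 23.1 ± 1.201 to 117 ± 5.38 FPKM. HIF1A fell from 223 ± 30.1 to 179.9 ± 15.6 FPKM.

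**Figure D4:**
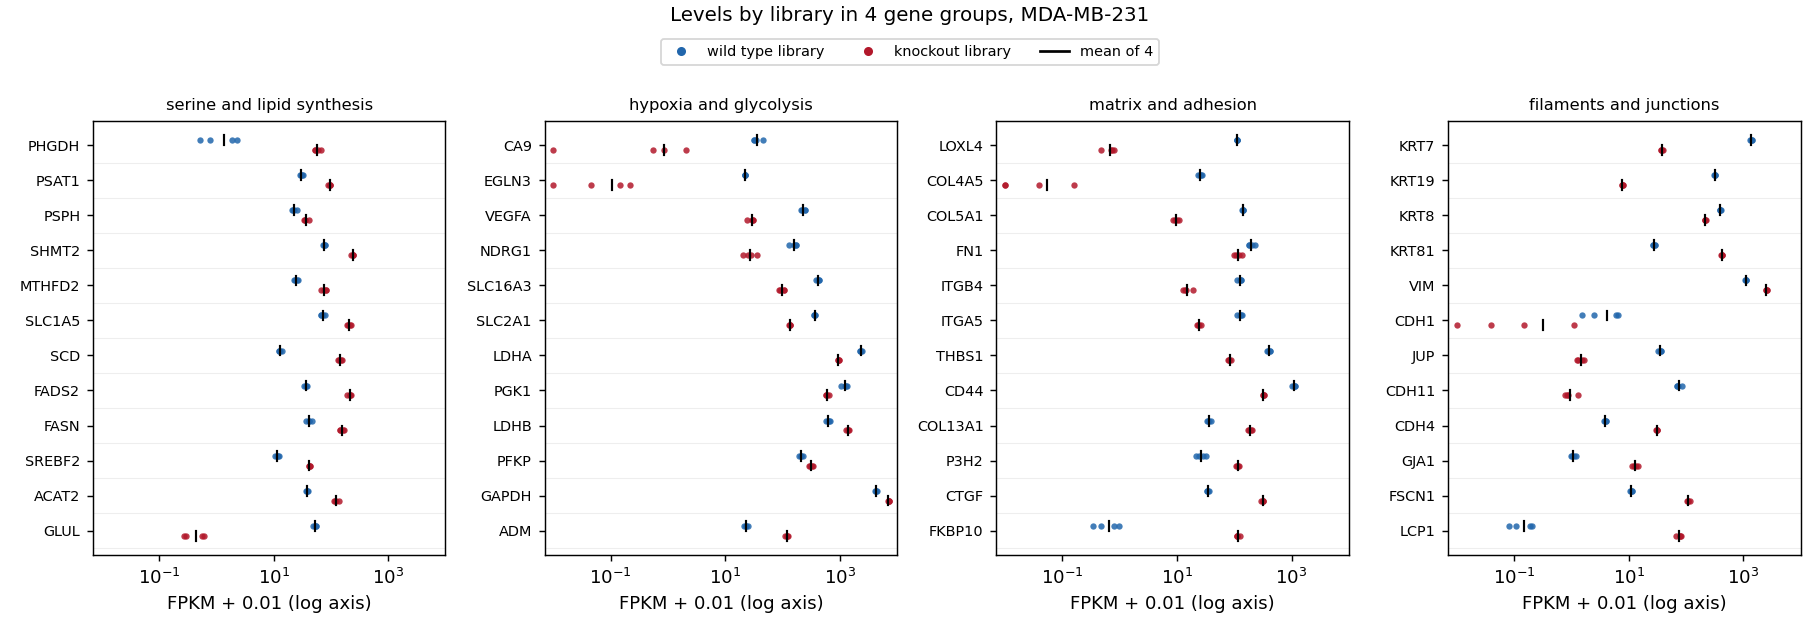
Level in each library (points, FPKM + 0.01 on a log axis; short lines are means of 4 libraries) of 48 genes in 4 groups. The serine and lipid synthesis genes lie to the right in the knockout except GLUL, CA9 to PGK1 in the hypoxia and glycolysis panel lie to the left, and the matrix, filament and junction panels hold genes of both kinds.

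Redox and detoxification genes went both ways. Of NRF2 and glutathione genes 9 of 31 tested members rose and 13 fell, and these became 7 and 20 with upper-quartile scaling, or 8 and 20 with quantile normalization, so the balance depends on the scale. SLC7A11, the cystine importer that feeds glutathione synthesis, read 1.99, 1.496, 2.15 and 2.22 FPKM in the wild type and 19.4, 19.6, 23.3 and 20.3 FPKM in the knockout (log2 fold change 2.87, SE 0.106, limma adjusted p = 5.77e-08). GPX3, a secreted glutathione peroxidase, read 112, 119, 122 and 125 FPKM in the wild type and 10.4, 9.77, 9.53 and 8.62 FPKM in the knockout (log2 fold change -3.51, SE 0.0651, limma adjusted p = 1.58e-09). AKR1C3, an aldo-keto reductase, fell from 56.6 ± 5.62 to 3.11 ± 0.662 FPKM and HMOX1, haem oxygenase, from 12.3 ± 0.624 to 3.86 ± 0.581 FPKM. NQO1, a quinone reductase, rose from 224 ± 9.49 to 391 ± 14.2 FPKM. NNMT, which methylates nicotinamide, read 74.4, 82.1, 79.9 and 72.1 FPKM in the wild type and 2.11, 4.19, 3.59 and 2.38 FPKM in the knockout (log2 fold change -4.29, SE 0.1596, limma adjusted p = 5.93e-08). Of 14 aldehyde dehydrogenases 9 rose and 5 fell (64.3% and 35.7%, against 42.6% and 25.7% of all tested genes). ALDH1A3, often used to define stem-like breast cancer cells, fell from 18.4 ± 2.34 to 4.39 ± 0.706 FPKM. CYP1B1, a monooxygenase of hormones and xenobiotics, fell from 132 ± 5.49 to 1.76 ± 0.845 FPKM. Of 183 solute carrier genes 59 rose and 75 fell (48 and 91 after upper-quartile scaling). As deposited that is 32.2% and 41.0%, against 42.6% and 25.7% of all tested genes.

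Genes of protein and RNA production were mostly higher. Of aminoacyl-tRNA synthetases 27 of 35 tested members rose and 2 fell (23 and 4 after upper-quartile scaling), of splicing factors 44 of 54 tested members rose and 1 fell (38 and 6 after upper-quartile scaling), of cytosolic ribosomal proteins 69 of 84 tested members rose and 3 fell (54 and 9 after upper-quartile scaling) and of mitochondrial ribosomal proteins 57 of 78 tested members rose and 6 fell (48 and 14 after upper-quartile scaling). KARS, the lysine enzyme, rose from 87.2 ± 4.27 to 308 ± 9.04 FPKM, SF3B3, a spliceosome subunit, from 188 ± 9.34 to 536 ± 37.98 FPKM and RPL4 from 1005 ± 21.98 to 2485 ± 88.8 FPKM. RPL39L fell from 48.6 ± 0.695 to 24.8 ± 2.69 FPKM and ESRP2, an epithelial splicing regulator, from 5.16 ± 0.421 to 1.26 ± 0.893 FPKM. Ribosomal protein genes have many processed copies that can take or lend reads.

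Respiratory chain subunits are encoded in both the mitochondrial and the nuclear genome. Of 13 mitochondrially encoded protein genes 0 rose and 7 fell (0 and 9 after upper-quartile scaling, 1 and 9 with quantile normalization). As deposited that is 0% and 53.8%, against 42.6% and 25.7% of all tested genes. Their summed level was 54218 to 63081 FPKM in the wild type and 32902 to 58451 FPKM in the knockout, so the summed levels overlapped. MT-ND5, a complex I subunit, read 1534, 1469, 1434 and 1314 FPKM in the wild type and 408, 599, 356 and 548 FPKM in the knockout (log2 fold change -1.62, SE 0.156, limma adjusted p = 1.90e-05). MT-CO2 fell from 8534 ± 415 to 4871 ± 1229 FPKM and MT-CO3 (5264 to 6605 FPKM) did not pass. Of 82 nuclear subunit genes 47 rose and 14 fell (57.3% and 17.1%), which became 35 and 24 after upper-quartile scaling. On that scale 32.8% of all tested genes were higher and 33.6% lower. COX4I1 rose from 332 ± 11.02 to 828 ± 59.6 FPKM and NDUFB2 fell from 219 ± 15.6 to 126 ± 5.202 FPKM.

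Most replication genes rose. Of DNA replication genes 30 of 40 tested members rose and 2 fell (25 and 4 after upper-quartile scaling), with GINS2 (12.8 ± 0.852 to 41.3 ± 2.34 FPKM), CDT1 (37.8 ± 5.26 to 106 ± 4.53 FPKM) and MCM2 (40.5 ± 4.01 to 107 ± 8.64 FPKM) in the lead. Of mitosis genes 20 of 32 tested members rose and 5 fell (62.5% and 15.6%, against 42.6% and 25.7% of all tested genes). These became 10 and 7 with upper-quartile scaling, or 9 and 7 with quantile normalization. With upper-quartile scaling 32.8% of all tested genes were higher and 33.6% lower. MKI67, the usual proliferation marker, read 57.8, 75.2, 60.2 and 60.7 FPKM in the wild type and 71.3, 55.97, 69.6 and 56.8 FPKM in the knockout (log2 fold change -0.00, SE 0.111, limma adjusted p = 0.984), and its groups overlapped. CDKN1A, the cell cycle inhibitor p21, read 90.5, 95.6, 101 and 99.7 FPKM in the wild type and 8.78, 7.38, 6.98 and 7.09 FPKM in the knockout (log2 fold change -3.52, SE 0.0771, limma adjusted p = 3.25e-09). CDK4 rose from 160.02 ± 4.71 to 383 ± 16.1 FPKM and CDK6 from 5.19 ± 0.401 to 12.1 ± 0.2995 FPKM. CCND1 (152 to 145 FPKM) and E2F1 (49.97 to 49.04 FPKM) did not pass. No test of the difference between the replication and mitosis lists was made.

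Chromatin genes include the writers of DNA methylation. DNMT3A rose from 2.79 ± 0.364 to 7.23 ± 1.12 FPKM, DNMT3B from 1.96 ± 0.118 to 6.33 ± 0.418 FPKM and PHC1, a Polycomb subunit, from 2.96 ± 0.193 to 23.97 ± 0.694 FPKM. EZH2 (42.3 to 43.02 FPKM) did not pass. In the list of DNA methylation and Polycomb genes 16 of 31 tested members rose and 1 fell (15 and 6 after upper-quartile scaling). LY6K, a cancer-testis gene, read 1.22, 2.56, 2.05 and 2.13 FPKM in the wild type and 72.6, 70.8, 63.3 and 70.5 FPKM in the knockout (log2 fold change 4.57, SE 0.138, limma adjusted p = 1.85e-08). SPANXC, another, fell from 3.62 ± 1.696 to 0.0949 ± 0.1898 FPKM. Of 73 listed cancer-testis genes 6 were tested, 5 rose and 1 fell (83.3% and 16.7%, against 42.6% and 25.7% of all tested genes). The other 67 stayed at 0.910 FPKM or less in every library. MAGEA6, MAGEB2 and SPANXC were under 1 FPKM in every library of the group where they were lower. They passed the filter only through the group where they were high. The direction of their calls was thus fixed, and the shares are a description only.

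Genes known from nerve, muscle and blood cells also changed, in both directions. KCNAB2, a potassium channel subunit, rose from 2.89 ± 0.291 to 26.3 ± 2.59 FPKM. SCNN1A, an epithelial sodium channel subunit, fell from 19.1 ± 2.79 to 1.28 ± 0.311 FPKM. SRGN, serglycin, a proteoglycan of blood cell granules, read 9.48, 9.41, 9.22 and 10.2 FPKM in the wild type and 211, 201, 184 and 189.6 FPKM in the knockout (log2 fold change 4.22, SE 0.0585, limma adjusted p = 2.97e-10). LAT, an adaptor of the T cell receptor, rose from 1.09 ± 0.485 to 30.03 ± 6.72 FPKM, APBB1IP, which links Rap1 to integrins, from 1.56 ± 0.32004 to 31.8 ± 1.46 FPKM and AKAP12, a kinase scaffold, from 1.66 ± 0.196 to 36.1 ± 0.653 FPKM. L1CAM, a neural adhesion molecule, fell from 35.7 ± 2.73 to 5.24 ± 0.432 FPKM, and TUBB3, a neuronal tubulin, rose from 38.6 ± 2.28 to 104 ± 2.71 FPKM. In bulk RNA a change in the share of cells and a change per cell cannot be told apart.

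**Figure D5:**
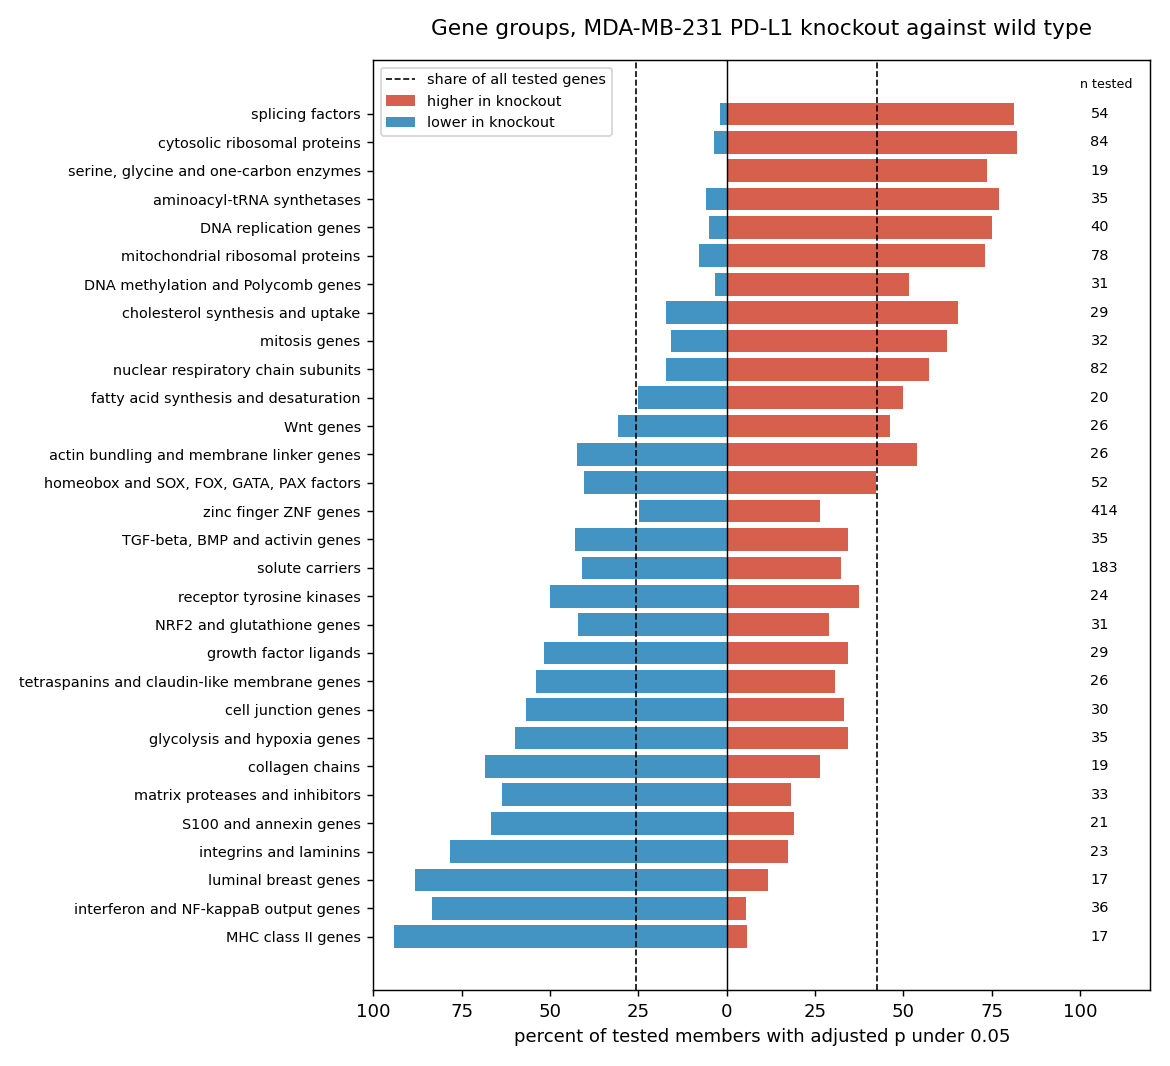
Percent of tested members that were lower (left) and higher (right) in the knockout at an adjusted p under 0.05 for 30 gene groups, with the number tested at the right. The dashed lines mark the shares over all tested genes, 25.7% lower and 42.6% higher.

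The immune genes can be put briefly. Of 17 MHC class II genes 16 fell and 1 rose, and of 36 interferon and NF-kappaB output genes 30 fell and 2 rose. C3, the central complement protein, read 151, 183, 160.4 and 165 FPKM in the wild type and 0.0271, 0.693, 0.523 and 1.602 FPKM in the knockout (log2 fold change -6.67, SE 0.242, limma adjusted p = 5.13e-08). IRF9 (13.6 to 11.01 FPKM), of the interferon-response complex, did not pass. SOD2, also an NF-kappaB output gene, rose from 59.6 ± 3.45 to 69.5 ± 4.97 FPKM as deposited and did not pass after upper-quartile scaling or quantile normalization.

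Noncoding transcripts went both ways. NEAT1, the scaffold RNA of paraspeckles, read 384, 322, 334 and 310.4 FPKM in the wild type and 73.4, 59.2, 54.7 and 75.9 FPKM in the knockout (log2 fold change -2.35, SE 0.115, limma adjusted p = 2.89e-07). MALAT1, a nuclear speckle RNA, read 85.6, 85.7, 79.95 and 65.5 FPKM in the wild type and 16.7, 14.1, 10.5 and 15.5 FPKM in the knockout (log2 fold change -2.41, SE 0.142, limma adjusted p = 8.75e-07). UCA1 fell from 87.7 ± 9.81 to 0.831 ± 0.373 FPKM and SFTA1P rose from 5.02 ± 1.71 to 82.1 ± 1.43 FPKM. NEAT1 and MALAT1 lie close together on chromosome 11, and both fell in every library. Genes that differed lay on all chromosomes, but the balance of rises and falls varied between them. On chromosome 12, 478 of 776 tested genes rose and 99 fell, and on chromosome 3, 470 of 824 rose and 127 fell. On X, 111 of 469 rose and 217 fell, against 6149 and 3711 of 14450 in all. The cause of this skew was not tested. The median log2 fold change of a chromosome's tested genes ran from -0.23 on X to 0.52 on chromosomes 10 and 12 among the chromosomes with at least 131 tested genes, which leaves out Y and a scaffold, and was -0.60 for 16 mitochondrial genes. Lost genes numbered 23 of 1437 tested on chromosome 1, 18 of 764 on chromosome 6 and 13 of 837 on chromosome 11, against 137 of 14450 in all.

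The authors also tested each gene. A q-value below 0.05 in the authors' deposited table was held by 8385 of the tested genes, and 8219 of them were among the 9860 found here, 98.0% of the authors' and 83.4% of these. For CD274 the q-value in the authors' deposited table is 0.36.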

How the data were processed

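RNA of 8 MDA-MB-231 libraries was compared, 4 per group; the CT26 libraries were not analysed here. Per the submitters' processing notes, bcl2fastq 2.18, STAR 2.5.4a, Cufflinks 2.2.1 and Cuffdiff were used with hg38. The annotation release and the use of strand are not given, so overlapping and antisense genes cannot be told apart. The deposited table held FPKM per gene and library, group means, and a p-value and a q-value from the authors' test. All 58713 gene IDs matched GENCODE 29, which gave coordinates, and 27 symbols turned into dates were restored by ID. The authors' status column marked 13 genes, all listed at 0, as having too much data, so a 0 can be a failed estimate.

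Values were tested as log2(FPKM + 1) with limma 3.58.1 (R 4.3.3; trend, two-sided, Benjamini-Hochberg over the 14450 members, threshold 0.05), which was tested on simulated data. Other steps used Python 3.11.15 (pandas 2.3.3, numpy 2.4.6) and plots matplotlib 3.10.9. FPKM removes library size and transcript length, and a fold change on this scale understates that of low genes. Depth was estimated from the steps between low values, where the values of genes with a single transcript are whole multiples of 1 fragment within 2% for 87.0% to 89.9% of cases; it is the authors' scale and approximate. Alternatives were pseudocounts of 0.1 and 5, no filter and a stricter one, upper-quartile scaling, quantile normalization, no trend, a block for the replicate number and leaving out each library.

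The members and lists were chosen with earlier results of these data known, so no count over a list is independent support. The genes named were to be CD274, the 25 largest rises and falls, the 20 most abundant genes on or off per direction, up to 8 members per list with the largest change, members that did not pass, the 10 most abundant genes called per direction and the 10 least moved. 73 of the 266 genes named fall outside that rule and were chosen after their values were seen, for their known role or as chromosome neighbours or markers: ADAMTS1, APCDD1L, APCDD1L-DT, AXL, BNIP3, C2, CD24, COL4A1, COL4A2, CST2, CST4, CTNNB1, CTSB, CYP1B1, CYR61, DKK1, EGFR, ELOVL1, ELOVL6, EPCAM, ERBB3, FGF1, FLNA, FN1, FNDC4, FOXM1, GATA3, GCKR, GLUL, HBEGF, HIF1A, HLA-DRB6, IGHV3-15, ITGA3, JAG1, KRT18, LCN2, LDHA, LDHB, LINC00996, MAL2, MALAT1, MDK, MUC5B, MYL9, NDUFB2, NEAT1, NME1, NQO1, P3H3, P4HB, PDGFC, PFKP, PGK1, PLAUR, PLEKHA7, PROM2, RHOD, RIMS2, RPL39L, S100A10, SHANK1, SMAD4, SOD2, ST6GAL1, SYT12, TCF7L2, TGFBR2, TIMP1, TLR4, TPI1, TRBC2 and UCA1.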

Additional observations from a re-analysis of the deposited data

Results flagged for a closer look

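In each group of 4 libraries the highest and the lowest value of every named gene was set against the range of the group, and 42 values in 532 groups stood apart from the other 3. Chance gives about 1 in 20.

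The widest gap in FPKM belonged to IFITM1, a membrane protein gene induced by interferon. Wild type replicate 4 read 635 FPKM and the other 3 wild type libraries 10.4 to 10.6 FPKM, while the knockout libraries read 0.2995, 0.838, 0.338 and 0.2003 FPKM. The gene counts as off in the knockout with or without that library, but its wild type mean rests on it. Why the library differs was not tested.

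Most of the values that stood apart at the low end belong to genes at or near 0 in that group. How many fragments such a gap holds depends on the transcript length. A fragment on 1 kb was worth 0.0894 FPKM in knockout replicate 2, and the gaps of CDH1, CDH11, ELF3 and TRIM29 there exceeded that. Why these values stood apart was not tested. In knockout replicate 1 the highest of 4 values were those of C2 (0.1397 against 0 FPKM), CST1 (0.305 against 0 FPKM), SCNN1A (1.75 against 1.09 to 1.15 FPKM) and SPANXC (0.3797 against 0 FPKM). In knockout replicate 2 the highest of 4 values were those of CDH1 (1.08 against 0 to 0.136 FPKM), CDH11 (1.31 against 0.759 to 0.844 FPKM), ELF3 (0.718 against 0.109 to 0.176 FPKM), HLA-DQB1 (0.152 against 0 FPKM), HLA-DRB6 (0.0853 against 0 FPKM) and TRIM29 (0.801 against 0 FPKM). In knockout replicate 3 the highest of 4 values were those of CD24 (0.954 against 0.1798 to 0.287 FPKM), CFB (0.574 against 0 to 0.0933 FPKM), HLA-DPA1 (0.311 against 0 to 0.0142 FPKM), HLA-DPB1 (0.0653 against 0 FPKM), HLA-DRB1 (0.0864 against 0 FPKM), HLA-DRB5 (0.0839 against 0 FPKM) and LCN2 (0.402 against 0 FPKM). In wild type replicate 2 the highest of 4 values was that of FOXA1 (0.0275 against 0 FPKM). In wild type replicate 3 the highest of 4 values were those of EPB41L3 (0.2504 against 0 FPKM) and ZNF521 (0.321 against 0.136 to 0.164 FPKM). In wild type replicate 4 the highest of 4 values were those of CD96 (0.162 against 0 to 0.02402 FPKM) and MUC5B (0.197 against 0.00301 to 0.0297 FPKM). 

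At higher levels the gaps were small beside the difference between the groups for most genes. Knockout replicate 1 had the highest value of EPCAM (13.6 against 11.3 to 11.6 FPKM), and the lowest value of AKAP12 (35.1 against 36.3 to 36.5 FPKM). Knockout replicate 2 had the highest values of ADAMTS1 (16.5 against 10.1 to 11.1 FPKM), CD96 (36.5 against 20.2 to 22.7 FPKM), COX4I1 (916 against 785 to 807 FPKM), PLAUR (171 against 155 to 158 FPKM), SNAI2 (10.5 against 8.97 to 9.05 FPKM) and SOD2 (76.9 against 66.3 to 68.1 FPKM), and the lowest value of VEGFA (24.4 against 29.6 to 30.6 FPKM). Knockout replicate 4 had the highest value of FKBP10 (125 against 112 to 114 FPKM). Wild type replicate 1 had the highest value of SPDEF (14.4 against 13.1 to 13.3 FPKM). Wild type replicate 2 had the highest values of MKI67 (75.2 against 57.8 to 60.7 FPKM), NQO1 (238 against 218 to 221 FPKM) and TIMP1 (1049 against 953 to 959.99 FPKM), and the lowest values of CTSD (1731 against 1813 to 1824 FPKM) and JAG1 (18.9 against 22.5 to 22.9 FPKM). Wild type replicate 3 had the highest value of EGLN3 (22.3 against 21.7 to 21.8 FPKM). Wild type replicate 4 had the highest value of CYP1B1 (140.3 against 128 to 130.2 FPKM), and the lowest value of EBP (118 against 124 to 125 FPKM). Knockout replicate 2 accounts for 13 of the 42 values.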

How the results depend on the processing

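Of the 251 named genes that rose or fell, 250 kept call and direction after upper-quartile scaling and 250 after quantile normalization, SOD2 being the exception in both (-0.024 after quantile normalization). Of the 15 named genes that did not pass, 10 passed after upper-quartile scaling and 9 after quantile normalization, CD274 among them in both. The counts of genes higher and lower stayed within 1.5 times of 6149 and 3711 under each alternative run, and ran from 5858 to 6023 and from 3472 to 3641 when 1 library was left out. The genes higher and lower by at least 2-fold were 1671 and 1438 as deposited, but 1137 and 1844 with upper-quartile scaling, and quantile normalization gave 1392 and 1550. At a pseudocount of 5 the genes higher and lower by at least 2-fold were 875 and 685, and with the stricter filter 828 were lower by 2-fold. The genes off and on in the knockout numbered 44 and 8 at limits of 10 and 0.5 FPKM, 305 and 146 at 2 and 1 FPKM, and 141 to 152 and 49 to 55 with 1 library left out. CD274 was at -0.40 after upper-quartile scaling and -0.32 after quantile normalization, past the threshold in both (the cause was not tested), and its adjusted p ran from 0.0157 to 0.382 over the alternatives.

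Genes that did not pass and lay close to no change took the opposite sign in some settings; the scaled settings also lower the median gene from 0.18 to -0.01 or 0.08. As log2 fold changes, upper-quartile scaling gave -0.19 for EZH2, -0.11 for FOCAD and -0.17 for TGFB1. Quantile normalization gave -0.20 for EZH2 and -0.18 for TGFB1. With 1 library left out the log2 fold change ran from -0.15 to 0.0033 for CCND1, from -0.0053 to 0.041 for EZH2, from -0.14 to 0.21 for FOCAD, from -0.061 to 0.080 for MKI67 and from -0.022 to 0.089 for TGFB1. EZH2 passed as lower in both scaled settings (limma adjusted p = 0.00435 and 0.00303). The replicate numbers do not pair the libraries: deviations of same-numbered libraries correlated at -0.04 to 0.00 and no library was closest to its own number. With the replicate block 6026 genes were higher and 3622 lower.

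The knockout libraries are shallower, so that in them a level below about 0.1 FPKM is 1 fragment or none on a transcript of 1 kb, and on or off cannot be told from very low. Depth limits the low genes most.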
